A study of Homo sapiens with 8 samples.

Results

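The HCl3 population of BEAS-2B cells was compared with untreated cells of the same line (UT). BEAS-2B cells come from human bronchial epithelium and were immortalised. The members were the 4 libraries that the labels place in these groups, 2 of HCl3 and 2 of UT, out of 8 RNA-seq libraries of the series. The question was which pathways and functions differed after nickel had been taken away from the cells. HCl3 carried the treatment text of 100 µM NiCl2 for 6 weeks, after which single cells were isolated and their clones were expanded in medium without nickel. Such a clone descends from a single exposed cell, which limits it as a model of the exposed population. UT was the untreated control, with no cloning given for it, and all cells grew in DMEM with fetal bovine serum. The labels did not give how long HCl3 was kept without nickel or what its name stands for. The series also held a population 6 months or longer out of nickel (Ni-W), named here only where it was tested directly against HCl3. Ni-W had the same dose and weeks of nickel as HCl3. The study's methods describe Ni-W as grown from an isolated colony in medium without nickel. HCl3 1 and HCl3 2 were labelled as experiments 3 and 4 and UT carried no experiment number, so experiment and group cannot be told apart, nor can cloning and nickel.

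As background, nickel ions can take the place of iron in the prolyl hydroxylases that mark HIF-1 alpha for destruction, so that hypoxia-inducible genes are transcribed in the presence of oxygen. Epithelial cells that undergo epithelial-mesenchymal transition (EMT) switch on transcription factors such as SNAI2 and ZEB1, secrete collagens and fibronectin, and loosen their junctions. Transforming growth factor beta (TGF-beta) drives matrix production, interferons induce antiviral genes, and ATF4 switches on amino acid synthesis under stress.

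Each library held between 26383920 and 38462224 reads assigned to genes (UT 37469371 and 26383920, HCl3 36742903 and 38462224). Levels are given as RPKM as deposited, read counts scaled to gene length and library size, always in the order library 1 then library 2. A gene was called when DESeq2 gave an adjusted P under 0.05 and a change of at least 1.5-fold, and log2 fold changes are HCl3 over UT ± SE with n = 2 libraries per group. Positions are in hg19 and are those of the 1 gene model that the files list per gene. Values are given per gene and are not split by transcript. For some genes, FN1 and HIF1A among them, the listed model may cover only 1 transcript. With 2 against 2 libraries no exact permutation test can reach 0.05, so the P values rest on the spread pooled over genes. Pearson correlation of log counts over 13774 genes was 0.991 between the UT libraries, 0.994 between the HCl3 libraries and 0.948 to 0.951 between groups. UT 1 and UT 2 differed more from each other than HCl3 1 and HCl3 2 did (biological coefficient of variation 0.10 and 0.0451). These are bulk libraries, so fewer cells of a type and less RNA per cell cannot be told apart.

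The comparison was lopsided towards genes that rose from low levels. Of 15766 genes tested, 2333 were called, a background of 14.8%. Of these 1744 rose (11.1% of the genes tested) and 589 fell (3.74%). Without the fold limit, 4945 genes (31.4%) passed the adjusted P and were nearly balanced, with 54.5% higher in HCl3. The genes that rose had a median level of 0.605 RPKM in UT and 2.04 RPKM in HCl3, and 148 of them had no read in either UT library. Those that fell had a median level of 14.9 RPKM in UT and 9.05 RPKM in HCl3, and 11 of them had no read in HCl3. Past 8-fold the counts were 414 up and 22 down. In RPKM both HCl3 libraries lay above both UT libraries for 1743 of the 1744 genes that rose, and below both for all 589 that fell. The genes were selected on these same libraries, so this separation follows largely from the selection and is no further test. The same holds wherever separation of the libraries is given below for called genes. The median log2 fold change over all genes tested was 0.01.

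**Figure D1:**
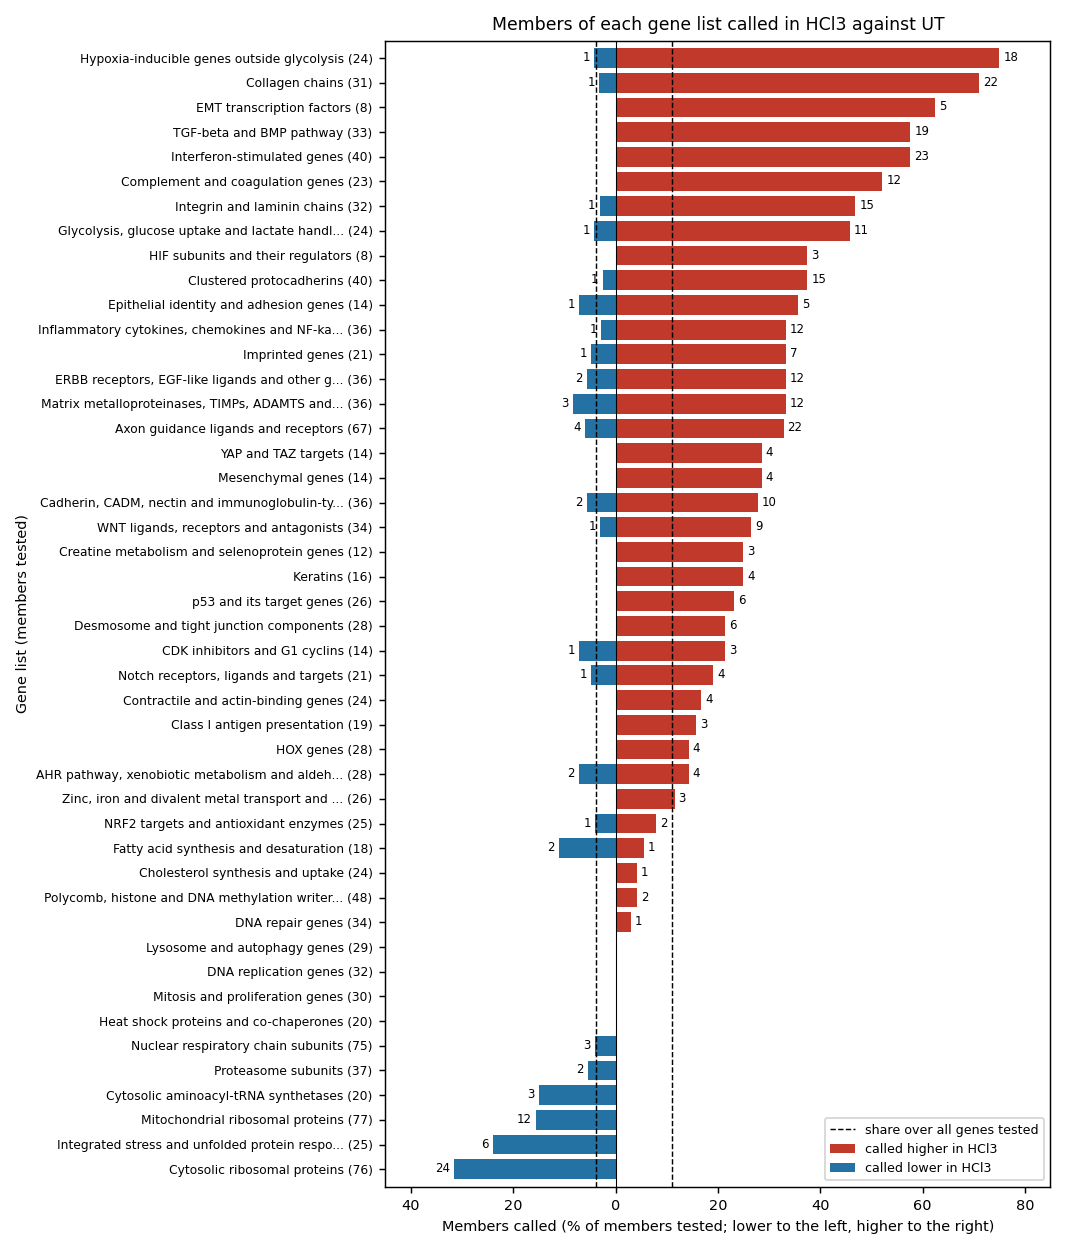
Share of the tested members of 46 gene lists called higher (red, right) or lower (blue, left) in HCl3 against UT, in percent of the members tested (number in parentheses). Numbers on the bars are genes and dashed lines are the shares over all genes tested (11.1% up, 3.74% down); lists with fewer than 8 tested members and cell type markers are not drawn.

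Hypoxia-inducible genes outside glycolysis had the largest share of members up among the lists drawn. Of 24 tested members, 18 were up, 1 down and 5 not called, with a median log2 fold change of 0.96. By median, lists such as collagens (1.94) ranked higher, and the lists were chosen with earlier results of these data known. ANGPTL4, a secreted inhibitor of lipoprotein lipase, had 0.31 and 0.25 RPKM in UT and 12.9 and 13.4 RPKM in HCl3 (log2 fold change 5.72 ± 0.30, adjusted P = 3.83e-78). CA9, a surface carbonic anhydrase used as a hypoxia marker, had 0.81 and 0.5 RPKM in UT and 20.1 and 21.4 RPKM in HCl3 (log2 fold change 4.89 ± 0.23, adjusted P = 2.22e-101). Both genes were at or below 1 RPKM in the untreated cells and above 12 in each HCl3 library. NDRG1, a stress-responsive growth regulator, had 15.3 and 10.2 RPKM in UT and 155 and 155 RPKM in HCl3 (log2 fold change 3.57 ± 0.31, adjusted P = 8.91e-29). The prolyl hydroxylase gene EGLN3 went from 0.63 and 0.46 to 3.35 and 3.66 RPKM (log2 fold change 2.61 ± 0.26, adjusted P = 3.19e-21), and its relative EGLN1 from 11.99 and 13.01 to 19.8 and 19.4 RPKM (log2 fold change 0.59 ± 0.10, adjusted P = 2.47e-08). For all of these the groups were well apart and the HCl3 libraries lay close together. LOX, which cross-links collagen, had 7.92 and 9.29 RPKM in UT and 38.4 and 34.6 RPKM in HCl3 (log2 fold change 2.04 ± 0.11, adjusted P = 4.59e-72). VEGFA, the angiogenic growth factor, had 5.02 and 5.21 RPKM in UT and 10.7 and 9.51 RPKM in HCl3 (log2 fold change 0.95 ± 0.13, adjusted P = 1.99e-11). The mitophagy receptor gene BNIP3 rose from 41.2 and 33.2 to 91.9 and 85.9 RPKM (log2 fold change 1.20 ± 0.12, adjusted P = 1.57e-22). The single member that fell was ADM, which encodes the vasodilator adrenomedullin, with 191 and 207 RPKM in UT and 116 and 121 RPKM in HCl3 (log2 fold change -0.80 ± 0.09, adjusted P = 4.57e-16).

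Among the HIF subunits and their regulators, 3 of 8 tested members rose and none fell. HIF1A itself (chr14:62164340-62214977) had 25.3 and 27.9 RPKM in UT and 80.3 and 75.4 RPKM in HCl3 (log2 fold change 1.49 ± 0.10, adjusted P = 3.46e-51), and EPAS1, the gene for HIF-2 alpha, 8.35 and 8.77 RPKM in UT and 19.3 and 18.8 RPKM in HCl3 (log2 fold change 1.10 ± 0.10, adjusted P = 1.27e-24). ARNT2, a partner subunit, had 1.97 and 1.8 RPKM in UT and 4.24 and 4.27 RPKM in HCl3 (log2 fold change 1.12 ± 0.14, adjusted P = 1.71e-13, median of its 10 Mb stretch 0.34). HIF1A-AS1, an antisense transcript named for the HIF1A locus, went the other way, with 11.7 and 13.6 RPKM in UT and 0.44 and 0.33 RPKM in HCl3 (log2 fold change -5.17 ± 0.41, adjusted P = 7.64e-35). The gene model of HIF1A overlaps HIF1A-AS2 on the other strand, and whether reads were counted by strand was not given in the sources used here. VHL, the ligase subunit that recognises hydroxylated HIF, had 10.7 and 7.92 RPKM in UT and 6.77 and 6.63 RPKM in HCl3 (log2 fold change -0.53 ± 0.15, adjusted P = 0.00146), short of the fold limit. The genes of its 10 Mb stretch of chromosome 3 had a median of -0.40.

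Genes of glycolysis and glucose uptake had 11 of 24 members up, 1 down and a median of 0.53. The glucose transporter gene SLC2A1 had 37.96 and 33.4 RPKM in UT and 77.2 and 77.6 RPKM in HCl3 (log2 fold change 1.06 ± 0.10, adjusted P = 1.6e-25). Its neuronal-type relative SLC2A3 was barely expressed in UT, at 0.04 and 0.1 RPKM, and reached 1.26 and 1.39 RPKM in HCl3 (log2 fold change 4.28 ± 0.46, adjusted P = 1.08e-18). PDK1, a kinase that inhibits pyruvate dehydrogenase, had 2.83 and 2.53 RPKM in UT and 8.28 and 7.44 RPKM in HCl3 (log2 fold change 1.51 ± 0.14, adjusted P = 7.25e-25). Both HCl3 libraries were the higher ones in each of these 3 genes. The most abundant enzymes changed by less, with ALDOA at 740.4 and 688 RPKM in UT and 1127 and 1173 RPKM in HCl3 (log2 fold change 0.63 ± 0.09, adjusted P = 1.27e-11), PGK1 at 289 and 292 RPKM in UT and 516 and 522 RPKM in HCl3 (log2 fold change 0.78 ± 0.08, adjusted P = 3.49e-19) and LDHA at 502 and 507 RPKM in UT and 861 and 875 RPKM in HCl3 (log2 fold change 0.73 ± 0.08, adjusted P = 8.32e-17). ALDOA no longer passed the fold limit without UT 2. LDHB, the lactate dehydrogenase chain of oxidative tissues, fell from 561 and 579 to 389 and 393 RPKM (log2 fold change -0.59 ± 0.08, adjusted P = 1.33e-10). Hexokinases HK1 and HK2 were not called, with log2 fold changes of 0.24 and 0.26. The nuclear genes of the respiratory chain had 0 of 75 members up and 3 down, with a median of -0.32. That is 4% called, near the 3.74% that fell over all genes tested. Their median was -0.11 without UT 1 and -0.49 without UT 2.

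**Figure D2:**
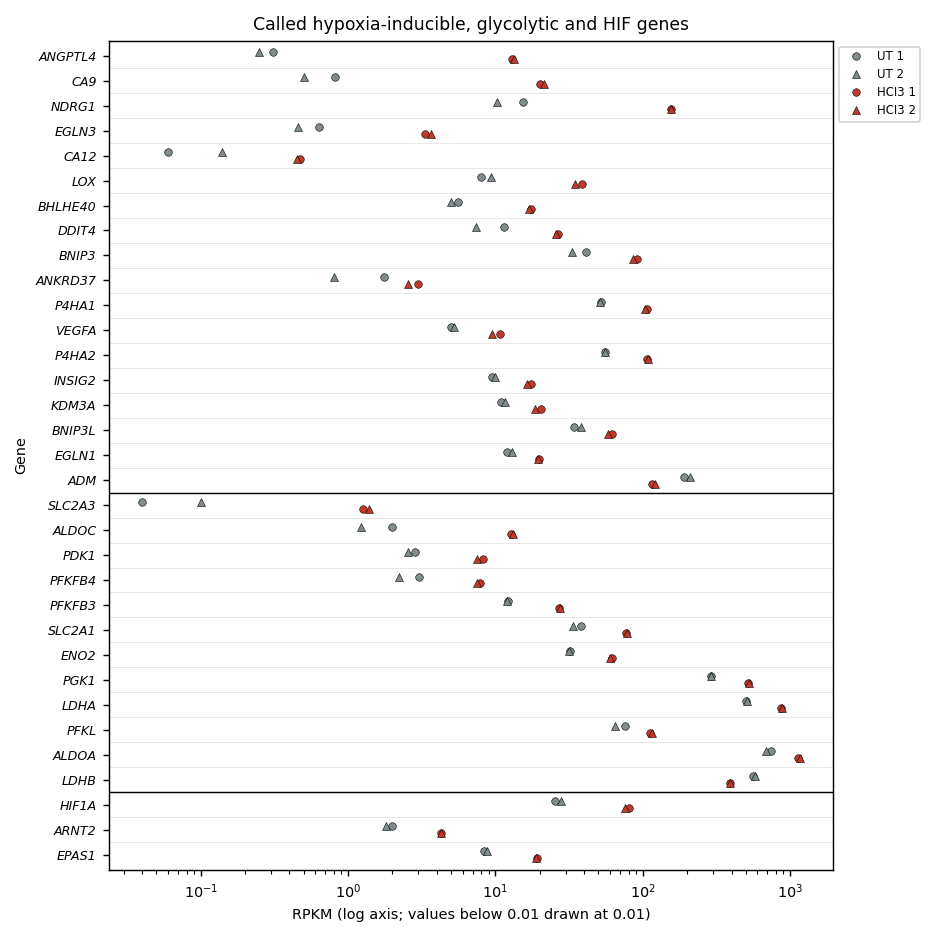
RPKM (log axis) of 33 called genes of the hypoxia, glycolysis and HIF lists in the UT (grey) and HCl3 (red) libraries, circles for library 1 and triangles for library 2, with lines between the lists. All lie to the right in HCl3 except ADM and LDHB; ANGPTL4 goes from 0.31 and 0.25 to 12.9 and 13.4 RPKM.

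Hypoxia-inducible factors bind the core motif ACGTG, so the start regions of the called hypoxia and glycolysis genes were searched for it on both strands. RefSeq start regions of 300 bases (250 before and 50 after the start, GRCh38.p14) were found for 24 of the 29 called genes that rose. The motif was present in 15 of the 24 (62.5%), in 6 of 18 members that did not rise (33.3%) and in 7518 of 35116 start regions of all genes (21.4%). The lists were made of genes known for these functions, so the share over all genes is no reference for the rise in HCl3. Overlapping matches on opposite strands were counted separately, and a match is a description of the letters, not a binding site. The 250 bases before the start are shown for 4 genes that rose, a surface enzyme, a matrix enzyme and 2 glycolytic enzymes, with matches in capitals, 5′ to 3′ on the strand of the gene.
CA9 (chr9:35673678-35673927, GRCh38.p14, plus strand): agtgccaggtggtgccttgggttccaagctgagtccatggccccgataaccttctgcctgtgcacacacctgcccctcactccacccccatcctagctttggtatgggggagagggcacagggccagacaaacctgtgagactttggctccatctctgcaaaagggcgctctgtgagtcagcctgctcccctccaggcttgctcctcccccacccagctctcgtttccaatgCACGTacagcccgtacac
LOX (chr5:122078260-122078509, GRCh38.p14, minus strand): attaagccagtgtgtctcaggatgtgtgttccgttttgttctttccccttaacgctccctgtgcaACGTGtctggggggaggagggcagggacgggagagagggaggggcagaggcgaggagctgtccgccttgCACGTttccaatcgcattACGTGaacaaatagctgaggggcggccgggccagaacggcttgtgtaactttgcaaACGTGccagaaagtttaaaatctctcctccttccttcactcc
ALDOC (chr17:28576896-28577145, GRCh38.p14, minus strand): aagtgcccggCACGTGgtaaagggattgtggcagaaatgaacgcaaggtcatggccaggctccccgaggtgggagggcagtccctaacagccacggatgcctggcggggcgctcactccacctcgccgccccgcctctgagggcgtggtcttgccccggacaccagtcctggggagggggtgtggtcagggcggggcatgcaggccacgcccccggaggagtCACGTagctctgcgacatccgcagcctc
LDHA (chr11:18394313-18394562, GRCh38.p14, plus strand): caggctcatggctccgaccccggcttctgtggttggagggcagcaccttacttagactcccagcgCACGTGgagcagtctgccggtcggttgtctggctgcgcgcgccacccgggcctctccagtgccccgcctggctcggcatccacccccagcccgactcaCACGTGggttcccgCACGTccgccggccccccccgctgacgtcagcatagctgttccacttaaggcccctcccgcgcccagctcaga

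Collagen genes rose as a group, with 22 of 31 tested chains up, 1 down and a median log2 fold change of 1.94, or 1.89 with the chains that had no UT read set to their lower bound. Without HCl3 2 the number up was 14. COL5A1, a fibril-nucleating chain, had 2.44 and 2.01 RPKM in UT and 29.1 and 29.8 RPKM in HCl3 (log2 fold change 3.67 ± 0.11, adjusted P = 2.6e-233). COL6A2, of the beaded filaments around cells, had 9.84 and 6.72 RPKM in UT and 56.5 and 57.1 RPKM in HCl3 (log2 fold change 2.73 ± 0.14, adjusted P = 4.43e-81). COL1A2 had 0.24 and 0.18 RPKM in UT and 2.05 and 2.01 RPKM in HCl3 (log2 fold change 3.21 ± 0.27, adjusted P = 1.8e-31), whereas COL1A1, the abundant partner chain, had 390.2 and 338 RPKM in UT and 431 and 454 RPKM in HCl3 and was not called (log2 fold change 0.23 ± 0.10, adjusted P = 0.0547). Both HCl3 libraries exceeded both UT libraries for the chains called up. The basement membrane chain COL4A1 had 16.2 and 15.4 RPKM in UT and 29.7 and 29.7 RPKM in HCl3 (log2 fold change 0.86 ± 0.09, adjusted P = 1.27e-18), and COL7A1, the anchoring fibril chain, 3.16 and 2.43 RPKM in UT and 8.54 and 8.34 RPKM in HCl3 (log2 fold change 1.54 ± 0.13, adjusted P = 2.56e-29). FN1, the gene for fibronectin (chr2:216279384-216300791), had 6.97 and 6.99 RPKM in UT and 117 and 121 RPKM in HCl3, a log2 fold change of 4.04 ± 0.09 with an adjusted P below the smallest number the software could hold.

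Integrin and laminin chains, the receptors and ligands that tie cells to this matrix, had 15 of 32 members up and 1 down. ITGA4, a fibronectin receptor chain, had 0.05 and 0.06 RPKM in UT and 4.68 and 4.19 RPKM in HCl3 (log2 fold change 6.34 ± 0.34, adjusted P = 1.52e-74). ITGB4, a chain of the hemidesmosome, had 1.44 and 0.91 RPKM in UT and 5.42 and 5.36 RPKM in HCl3 (log2 fold change 2.14 ± 0.18, adjusted P = 7.3e-29). LAMB3, a chain of the laminin it binds, rose from 6.72 and 6.11 to 16.6 and 16.9 RPKM (log2 fold change 1.31 ± 0.11, adjusted P = 7.62e-29). Both HCl3 libraries exceeded both UT libraries for these genes. ITGA4 shares sequence with CERKL on the opposite strand, and its 10 Mb stretch of chromosome 2 had a median of 0.44 over its genes.

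The matrix proteases had 12 of 36 members up and 3 down. MMP1, the interstitial collagenase, had 0.37 and 0.45 RPKM in UT and 8.21 and 7.06 RPKM in HCl3 (log2 fold change 4.16 ± 0.27, adjusted P = 2.48e-51). MMP2, a gelatinase, had 0.82 and 0.68 RPKM in UT and 2.16 and 2.1 RPKM in HCl3 (log2 fold change 1.45 ± 0.25, adjusted P = 1.03e-07). TLL1, a tolloid protease that trims procollagen (chr4:166794410-167025609), had the largest fall among genes with a mean normalised count of at least 50. It had 1.02 and 1.03 RPKM in UT and 0 and 0.01 RPKM in HCl3, where only 1 read was found, a ratio of 604 (95% exact counting interval 108 to 23914; adjusted P = 5.19e-09). The aggrecanase gene ADAMTS1 fell from 25.4 and 32.3 to 15.2 and 13.8 RPKM (log2 fold change -1.05 ± 0.12, adjusted P = 1.75e-15).

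The TGF-beta and BMP pathway had 19 of 33 members up and none down, with a median of 0.69. Among ligands, TGFB1 had 28.1 and 27.2 RPKM in UT and 42.96 and 45.6 RPKM in HCl3 (log2 fold change 0.63 ± 0.10, adjusted P = 5.99e-09) and TGFB2 26.1 and 31.3 RPKM in UT and 42.1 and 39.8 RPKM in HCl3 (log2 fold change 0.46 ± 0.11, adjusted P = 0.000162), the latter short of the fold limit. INHBB, an activin chain, had 0.24 and 0.35 RPKM in UT and 1.93 and 1.53 RPKM in HCl3 (log2 fold change 2.53 ± 0.34, adjusted P = 3.05e-12). The extracellular BMP antagonist GREM1 had 5.04 and 6.45 RPKM in UT and 33.7 and 33.2 RPKM in HCl3 (log2 fold change 2.50 ± 0.12, adjusted P = 7.09e-90). Ligand and antagonist genes were thus both higher in HCl3. SMAD3, which carries the signal to the nucleus, had 24.96 and 24.4 RPKM in UT and 48.1 and 48.96 RPKM in HCl3 (log2 fold change 0.92 ± 0.09, adjusted P = 2.98e-23), and the inhibitory SMAD6 3.98 and 3.67 RPKM in UT and 8.36 and 8.39 RPKM in HCl3 (log2 fold change 1.04 ± 0.16, adjusted P = 3.46e-09). TGFBI, a matrix protein induced by the pathway, had 94.3 and 95.95 RPKM in UT and 499.7 and 513 RPKM in HCl3 (log2 fold change 2.36 ± 0.08, adjusted P = 9.16e-169). GREM1, SMAD3 and SMAD6 lie on chromosome 15, in stretches whose genes had median log2 fold changes of 0.25.

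**Figure D3:**
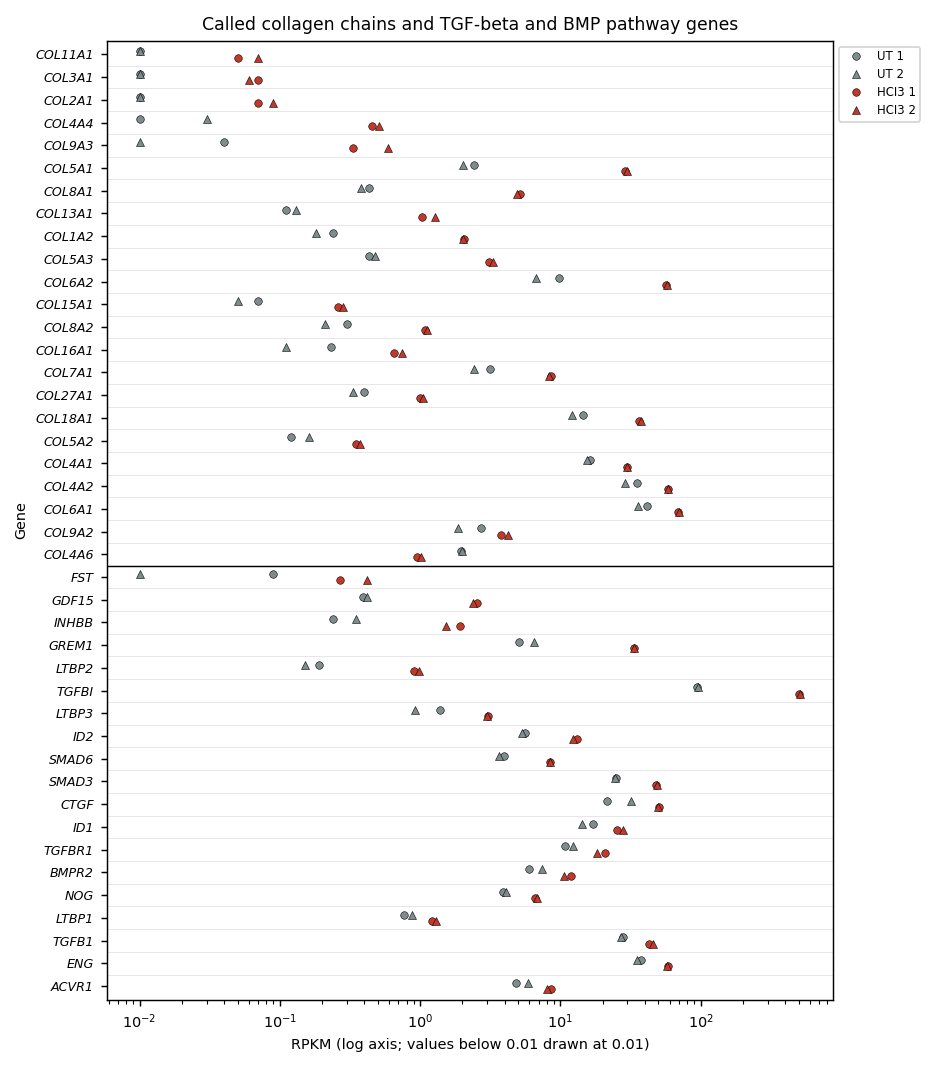
RPKM (log axis, values below 0.01 drawn at 0.01) of the 23 called collagen chains (above the line) and 19 called TGF-beta and BMP pathway genes (below) in the UT (grey) and HCl3 (red) libraries. TGFBI is the most abundant of the lower block, at 94.3 and 95.95 RPKM in UT and 499.7 and 513 RPKM in HCl3.

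EMT transcription factors were called up in 5 of 8 tested cases, all from low levels, and none was called down. The 3 not called were TWIST1 (log2 fold change 0.56 ± 0.21, adjusted P = 0.0314), TCF4 (-0.44 ± 0.16, adjusted P = 0.0284) and ZEB2 (-0.31 ± 0.10, adjusted P = 0.00982). Each of the 3 passed the adjusted P but not the fold limit. ZEB1, a repressor of E-cadherin, had 0.99 and 1.25 RPKM in UT and 2.51 and 2.36 RPKM in HCl3 (log2 fold change 1.08 ± 0.19, adjusted P = 2.19e-07). SNAI2 had 0.32 and 0.26 RPKM in UT and 1.42 and 1.38 RPKM in HCl3 (log2 fold change 2.19 ± 0.42, adjusted P = 2.12e-06). The number up was 2 without HCl3 1, 2 without HCl3 2 and 3 without UT 1. Of 14 mesenchymal genes 4 rose, FN1 and LOXL2 among them, together with NT5E, the ectonucleotidase CD73, at 6.88 and 8.9 RPKM in UT and 31.9 and 30.4 RPKM in HCl3 (log2 fold change 1.93 ± 0.13, adjusted P = 8.19e-51). CDH11, a mesenchymal cadherin, had no read in UT and 0.35 and 0.38 RPKM in HCl3, at least 14.8-fold higher against a floor of 3 reads per library (adjusted P = 4.31e-06). The abundant mesenchymal genes did not pass the test, VIM having 1417 and 1518 RPKM in UT and 1515 and 1527 RPKM in HCl3 (log2 fold change -0.00 ± 0.09, adjusted P = 0.983) and CDH2, N-cadherin, 64.1 and 74.2 RPKM in UT and 70.7 and 67.4 RPKM in HCl3 (log2 fold change -0.06 ± 0.10, adjusted P = 0.732). CDH1, E-cadherin, stood at 0.05 and 0.01 RPKM in UT and 0.05 and 0.07 RPKM in HCl3 and was not called.

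Some junction and epithelial genes rose as well. Of 28 desmosome and tight junction genes, 6 were up (21.4%, against 11.1% over all genes tested), none down and 22 not called, with a median of 0.10. DSP, desmoplakin (chr6:7541870-7586946), had 0.23 and 0.34 RPKM in UT and 8.31 and 8.49 RPKM in HCl3 (log2 fold change 4.86 ± 0.16, adjusted P = 3e-200). PPL, the cornified envelope linker periplakin, had 0.16 and 0.14 RPKM in UT and 1.44 and 1.47 RPKM in HCl3 (log2 fold change 3.19 ± 0.28, adjusted P = 4.57e-27), and plakoglobin, JUP, 14.7 and 13.9 RPKM in UT and 26.2 and 26.1 RPKM in HCl3 (log2 fold change 0.82 ± 0.10, adjusted P = 4.98e-14). Among 14 epithelial identity genes, 5 rose and GRHL1 fell (3 up without HCl3 2, and none down when any 1 library was left out), with the membrane mucin gene MUC1 at 2.3 and 1.45 RPKM in UT and 7.56 and 7.68 RPKM in HCl3 (log2 fold change 1.97 ± 0.25, adjusted P = 1.47e-13). Of 16 keratins 4 rose, and 2 without HCl3 2. KRT17, a keratin of injured epithelium, had 3.47 and 3.69 RPKM in UT and 22.2 and 23.1 RPKM in HCl3 (log2 fold change 2.61 ± 0.15, adjusted P = 2.85e-64), and KRT7 had 267 and 265 RPKM in UT and 412 and 438 RPKM in HCl3 (log2 fold change 0.62 ± 0.09, adjusted P = 2.28e-11), a call that KRT7 lost without HCl3 2. Mesenchymal and epithelial genes were therefore both among those called up.

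Contractile genes rose in 4 of 24 cases, near the background of 11.1%, with TPM1, a tropomyosin, at 177 and 205 RPKM in UT and 333 and 328 RPKM in HCl3 (log2 fold change 0.74 ± 0.10, adjusted P = 1.42e-12). TAGLN, an actin-binding protein of smooth muscle, had 179 and 182 RPKM in UT and 235 and 246 RPKM in HCl3 and stayed under the fold limit (log2 fold change 0.36 ± 0.09, adjusted P = 0.00039). YAP and TAZ targets rose in 4 of 14 cases, ANKRD1 from 5.6 and 7.88 to 26.03 and 23.6 RPKM (log2 fold change 1.83 ± 0.16, adjusted P = 1.9e-29). CTGF had 21.4 and 31.9 RPKM in UT and 50.4 and 49.6 RPKM in HCl3 (log2 fold change 0.86 ± 0.15, adjusted P = 1.34e-07).

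Some receptor and ligand genes were called up in several families, where 11.1% rose and 3.74% fell over all genes tested. Growth factor receptors and their ligands had 12 of 36 members up and 2 down. EGFR had 7.48 and 7.74 RPKM in UT and 16.6 and 16.4 RPKM in HCl3 (log2 fold change 1.06 ± 0.10, adjusted P = 7.81e-23), IGF1R 2.88 and 2.75 RPKM in UT and 8.22 and 7.97 RPKM in HCl3 (log2 fold change 1.47 ± 0.10, adjusted P = 2.6e-42) and the ligand gene PDGFB 1.27 and 1.22 RPKM in UT and 5.91 and 6.3 RPKM in HCl3 (log2 fold change 2.23 ± 0.18, adjusted P = 4.48e-34). The HCl3 libraries were the higher ones in all 3. WNT genes were up in 9 of 34 cases and down in 1 (5 up without HCl3 1), with the secreted antagonist SFRP1 at 0.05 and 0.04 RPKM in UT and 2.57 and 2.61 RPKM in HCl3 (log2 fold change 5.74 ± 0.43, adjusted P = 3.16e-38) and the ligand gene WNT5A at 0.84 and 1.09 RPKM in UT and 2.2 and 1.79 RPKM in HCl3 (log2 fold change 1.01 ± 0.21, adjusted P = 1.47e-05). In the Notch list 4 of 21 rose and 1 fell (2 up without either HCl3 library). NOTCH3, a receptor of mural cells, had 0.58 and 0.45 RPKM in UT and 3.65 and 3.7 RPKM in HCl3 (log2 fold change 2.76 ± 0.17, adjusted P = 3.54e-56).

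Genes of axon guidance, which also steer migrating cells outside the nervous system, had 22 of 67 members up and 4 down. ROBO1, a receptor for SLIT ligands (chr3:78646388-79817059), had no read in UT and 1.47 and 1.25 RPKM in HCl3, at least 111-fold higher (adjusted P = 4.38e-12), while the ligand gene SLIT3 had 0.02 and 0.01 RPKM in UT and 0.39 and 0.41 RPKM in HCl3 (log2 fold change 4.77 ± 0.58, adjusted P = 7.22e-15). The count up was 12 without HCl3 1 and 9 without HCl3 2. Cadherin and immunoglobulin-type adhesion genes had 10 of 36 members up and 2 down (4 up without HCl3 1, 6 without HCl3 2). CADM3, a neuronal adhesion molecule, had 0 and 0.03 RPKM in UT and 2.17 and 2.42 RPKM in HCl3, a ratio of 282 (95% exact counting interval 77.8 to 2333; adjusted P = 3.85e-13). CDH12 had 0.39 and 0.41 RPKM in UT and no read in HCl3, at least 25.1-fold lower (adjusted P = 2.39e-07). Clustered protocadherins rose in 15 of 40 cases and fell in 1 (6 and 7 up without HCl3 1 and HCl3 2), but their gene models share exons, so single members are uncertain.

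Interferon-stimulated genes rose in 23 of 40 cases and none fell, with a median of 0.77. MX1, a GTPase that blocks viral replication, had 2.03 and 1.54 RPKM in UT and 13.7 and 13.04 RPKM in HCl3 (log2 fold change 2.80 ± 0.16, adjusted P = 7.73e-66). OASL, an oligoadenylate synthetase relative, had 0.34 and 0.16 RPKM in UT and 3.65 and 3.43 RPKM in HCl3 (log2 fold change 3.78 ± 0.36, adjusted P = 5.41e-24). ISG15, a ubiquitin-like modifier, had 62.6 and 39.8 RPKM in UT and 92.6 and 95.8 RPKM in HCl3 (log2 fold change 0.82 ± 0.16, adjusted P = 6.33e-06). In each of these the HCl3 libraries were above both UT libraries. RSAD2, viperin, had no UT read and 0.2 and 0.23 RPKM in HCl3, at least 8.33-fold higher (adjusted P = 0.000128). IRF9, the DNA-binding part of the factor that drives these genes, had 5.03 and 5.1 RPKM in UT and 10.7 and 10.8 RPKM in HCl3 (log2 fold change 1.03 ± 0.16, adjusted P = 3.53e-09). IRF7, an inducible factor of the same response, had 8.14 and 6.24 RPKM in UT and 8.19 and 8.24 RPKM in HCl3 and was not called. IFNB1, interferon beta, had 0 and 0.08 RPKM in UT and 0.06 and 0 RPKM in HCl3, too few reads to be tested. Class I antigen presentation had 3 of 19 members up, again near the background, with HLA-B at 186 and 165 RPKM in UT and 322 and 339 RPKM in HCl3 (log2 fold change 0.86 ± 0.10, adjusted P = 1.72e-17).

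The element bound by the interferon-activated factor contains GAAA repeated after 2 free bases, and RefSeq start regions were found for 18 of the 23 genes that rose. This motif was present on either strand in 13 of the 18 (72.2%), in 6 of 13 list members that did not rise (46.2%) and in 1255 of 35116 start regions of all genes (3.57%). The list was made of known interferon-stimulated genes, so the share over all genes is no reference for the rise in HCl3. The motif is shown in capitals in the 250 bases before the start of 3 genes from different families of the response.
IFIT1 (chr10:89392373-89392622, GRCh38.p14, plus strand): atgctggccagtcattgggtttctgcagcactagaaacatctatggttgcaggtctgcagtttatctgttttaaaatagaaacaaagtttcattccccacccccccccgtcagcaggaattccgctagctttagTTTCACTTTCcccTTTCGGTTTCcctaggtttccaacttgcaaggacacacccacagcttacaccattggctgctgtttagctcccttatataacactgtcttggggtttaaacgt
IFI6 (chr1:27672193-27672442, GRCh38.p14, minus strand): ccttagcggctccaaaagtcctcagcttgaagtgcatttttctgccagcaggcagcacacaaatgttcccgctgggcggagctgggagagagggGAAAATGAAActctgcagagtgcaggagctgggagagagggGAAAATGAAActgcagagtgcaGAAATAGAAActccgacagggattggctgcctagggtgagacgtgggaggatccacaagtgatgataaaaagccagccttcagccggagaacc
OAS3 (chr12:112938224-112938473, GRCh38.p14, plus strand): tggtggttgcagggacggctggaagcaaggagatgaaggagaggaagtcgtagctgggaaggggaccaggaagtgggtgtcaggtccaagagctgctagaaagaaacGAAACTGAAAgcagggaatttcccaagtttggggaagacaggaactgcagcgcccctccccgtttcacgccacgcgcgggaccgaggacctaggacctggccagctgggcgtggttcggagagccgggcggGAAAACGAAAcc
IFIT1 had 3.32 and 3.18 RPKM in UT and 6.1 and 5.57 RPKM in HCl3 (log2 fold change 0.79 ± 0.14, adjusted P = 4.03e-07). IFI6, a mitochondrial and membrane protein, had 33.1 and 22.4 RPKM in UT and 68.1 and 67.1 RPKM in HCl3 (log2 fold change 1.23 ± 0.16, adjusted P = 1.71e-13). OAS3 had 18.8 and 18.4 RPKM in UT and 30.8 and 30.4 RPKM in HCl3 (log2 fold change 0.66 ± 0.09, adjusted P = 9.01e-12).

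**Figure D4:**
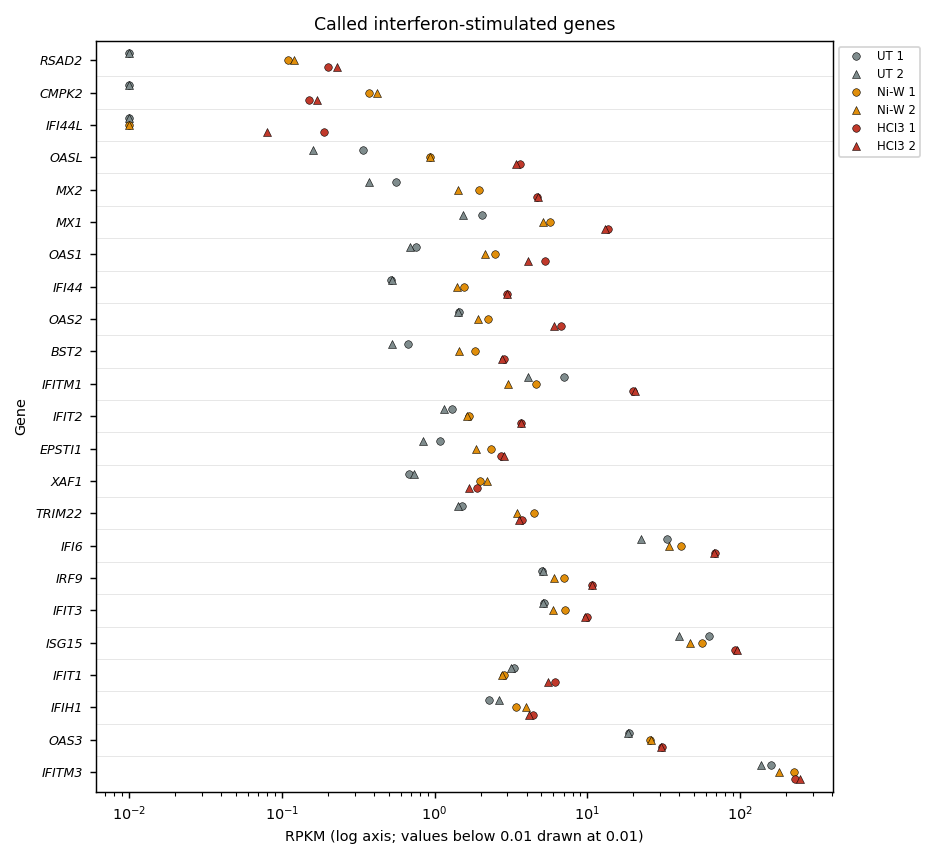
RPKM (log axis, values below 0.01 drawn at 0.01) of the 23 interferon-stimulated genes called higher in HCl3 (red) than in UT (grey), with the Ni-W libraries (orange); circles are library 1 and triangles library 2. MX1 runs from 2.03 and 1.54 RPKM in UT through 5.72 and 5.16 RPKM in Ni-W to 13.7 and 13.04 RPKM in HCl3.

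Inflammatory genes were up in 12 of 36 cases and down in 1 (7 up without HCl3 1). IL6 had 4.47 and 3.04 RPKM in UT and 15.4 and 17.2 RPKM in HCl3 (log2 fold change 2.05 ± 0.20, adjusted P = 1.12e-22), and IL1B had 12.8 and 10.9 RPKM in UT and 24.4 and 25.8 RPKM in HCl3 (log2 fold change 1.02 ± 0.14, adjusted P = 1.48e-12). SAA1, an acute-phase protein, had 19.4 and 8.45 RPKM in UT and 57.7 and 72.2 RPKM in HCl3 (log2 fold change 2.18 ± 0.58, adjusted P = 0.0011), with the UT libraries apart from each other but below both HCl3 libraries. Complement and coagulation genes were up in 12 of 23 cases and none fell. PLAU, the urokinase that activates plasmin, had 17.7 and 14.9 RPKM in UT and 43.9 and 46.1 RPKM in HCl3 (log2 fold change 1.40 ± 0.11, adjusted P = 1.2e-32), and tissue factor, F3, 64.6 and 90.3 RPKM in UT and 149 and 135 RPKM in HCl3 (log2 fold change 0.82 ± 0.13, adjusted P = 1.59e-08). THBS1, thrombospondin, had 112 and 147 RPKM in UT and 283 and 256 RPKM in HCl3 (log2 fold change 1.00 ± 0.12, adjusted P = 4.95e-15).

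Genes of the ATF4 stress response and of protein synthesis were among those that fell. Of 25 integrated stress and unfolded protein response genes, 6 fell and none rose. ATF4 itself had 107 and 98.2 RPKM in UT and 52.5 and 57.4 RPKM in HCl3 (log2 fold change -0.95 ± 0.10, adjusted P = 1.12e-18). ASNS, asparagine synthetase, had 38.9 and 41.3 RPKM in UT and 14.7 and 14.5 RPKM in HCl3 (log2 fold change -1.51 ± 0.11, adjusted P = 6.16e-42), and PSAT1, of serine synthesis, 79.2 and 88.5 RPKM in UT and 39.4 and 37.5 RPKM in HCl3 (log2 fold change -1.18 ± 0.10, adjusted P = 6.13e-30). Each was lower in both HCl3 libraries than in either UT library. HSPA5, the endoplasmic reticulum chaperone, did not pass the test, with 191 and 197 RPKM in UT and 209.7 and 216 RPKM in HCl3. Of 20 cytosolic tRNA synthetases 3 fell, YARS from 73.2 and 75.3 to 38.6 and 40.97 RPKM (log2 fold change -0.96 ± 0.09, adjusted P = 4.91e-23). The translation factor gene EIF4A1 fell from 676 and 705 to 402 and 422 RPKM (log2 fold change -0.80 ± 0.09, adjusted P = 8.94e-19), and EIF5A from 600.2 and 613 to 386 and 407 RPKM (log2 fold change -0.67 ± 0.09, adjusted P = 3.96e-13). Groups did not overlap for any of these. NPM1, the nucleolar chaperone of ribosome assembly, had 433 and 446 RPKM in UT and 255 and 261 RPKM in HCl3 (log2 fold change -0.83 ± 0.09, adjusted P = 3.51e-20), and C1QBP, a mitochondrial matrix protein, 435 and 493 RPKM in UT and 200.4 and 223 RPKM in HCl3 (log2 fold change -1.19 ± 0.10, adjusted P = 1.46e-29). EIF4A1, EIF5A and C1QBP lie in 1 stretch of 10 Mb on chromosome 17 with a median of -0.41 over its genes, and EIF4A1 and C1QBP overlap other gene models.

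Cytosolic ribosomal protein genes had 24 of 76 members down and none up, with a median of -0.58. RPS6 had 1676 and 1476 RPKM in UT and 903 and 968 RPKM in HCl3 (log2 fold change -0.81 ± 0.10, adjusted P = 1.6e-15, median of its 10 Mb stretch -0.37). RPL35A had 2942 and 1791 RPKM in UT and 1139 and 1219 RPKM in HCl3 (log2 fold change -1.06 ± 0.35, adjusted P = 0.0112), so that the UT libraries differed from each other by more than UT 2 differed from HCl3. The number that fell was 8 without UT 1, 48 without UT 2, 10 without HCl3 1 and 15 without HCl3 2, and 13 after correction for GC content and length. Over all genes, the difference between UT 1 and UT 2 had a Spearman correlation with GC content of 0.492. RPL26, RPL35A, RPS12, RPS24 and RPS25 lost their calls without either HCl3 library, and RPL5 and RPS13 without UT 1. Mitochondrial ribosomal protein genes had 12 of 77 members down and none up, with MRPL47 at 128 and 110.3 RPKM in UT and 64.6 and 63.9 RPKM in HCl3 (log2 fold change -0.95 ± 0.11, adjusted P = 1.97e-17). That count was 7 without UT 1, 25 without UT 2 and 6 after that correction.

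**Figure D5:**
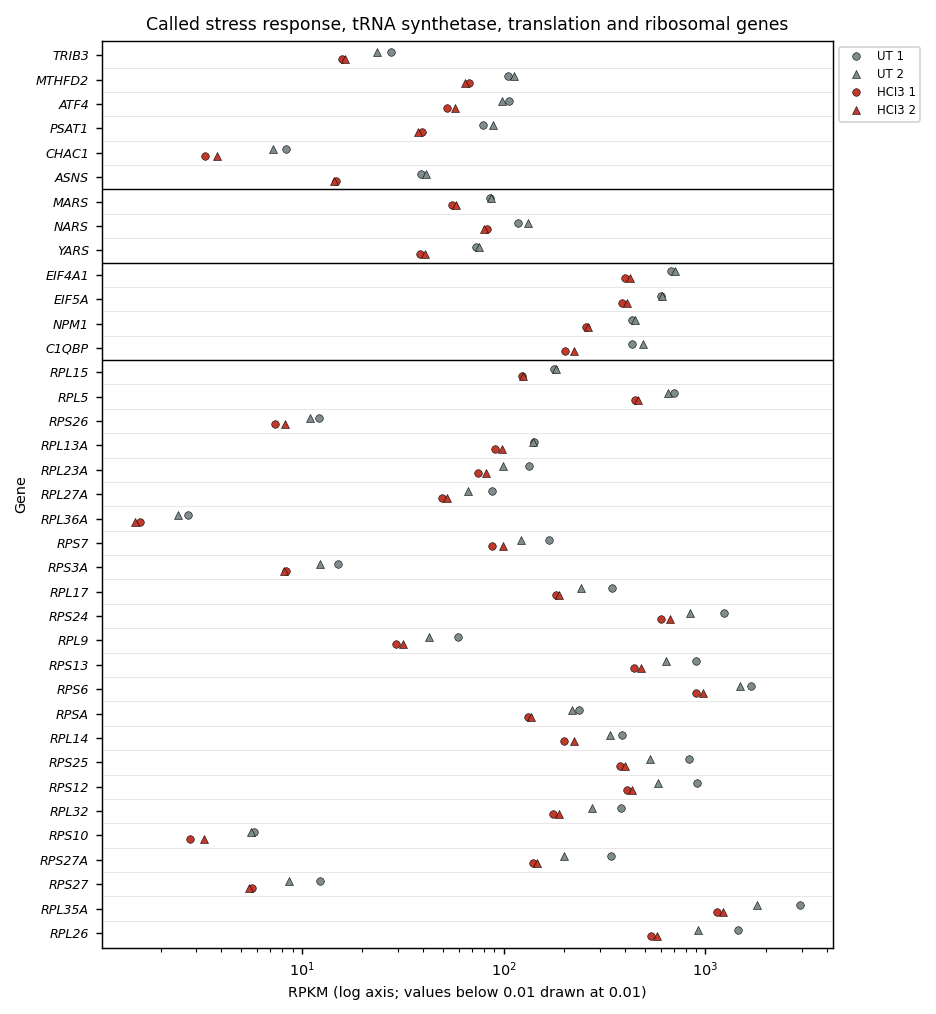
RPKM (log axis) of the called genes that fell, from top to bottom the ATF4 stress response, tRNA synthetases, 4 abundant translation and ribosome assembly genes and cytosolic ribosomal proteins, in the UT (grey) and HCl3 (red) libraries. For many ribosomal genes UT 1 (circle) lies to the right of UT 2 (triangle), as for RPL35A at 2942 and 1791 RPKM, with both HCl3 libraries to the left.

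Genes of metal handling were called at or near the background rate. Of 5 tested metallothioneins, which bind zinc and cadmium, MT1F rose (1.82 and 2.0 RPKM in UT and 5.17 and 4.11 RPKM in HCl3, log2 fold change 1.23 ± 0.44, adjusted P = 0.0198) and the abundant MT2A had 292 and 207 RPKM in UT and 306 and 328 RPKM in HCl3 (log2 fold change 0.29 ± 0.14, adjusted P = 0.0939). The MT1F call was lost when any 1 library was left out, and without UT 2 the list had 0 members up and 1 down. Zinc and iron transport and storage genes had 3 of 26 members up. The zinc importer gene SLC39A8 had 0.36 and 0.23 RPKM in UT and 3.32 and 3.31 RPKM in HCl3 (log2 fold change 3.53 ± 0.29, adjusted P = 1.41e-32), and SLC40A1, the iron exporter ferroportin, 0.27 and 0.21 RPKM in UT and 1.33 and 1.39 RPKM in HCl3 (log2 fold change 2.41 ± 0.35, adjusted P = 2.13e-10). Of 25 NRF2 targets 2 rose and 1 fell (3 down without UT 2), with NQO1, a quinone reductase, at 25.8 and 25.2 RPKM in UT and 46.6 and 47.8 RPKM in HCl3 (log2 fold change 0.83 ± 0.10, adjusted P = 5.24e-16). HMOX1, heme oxygenase, had 15.7 and 14.2 RPKM in UT and 19.9 and 19.8 RPKM in HCl3 and was not called (log2 fold change 0.35 ± 0.13, adjusted P = 0.0241).

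Cell cycle genes were largely not called, apart from some CDK inhibitors and G1 cyclins. That list had 3 of 14 tested members up and 1 down, with a median of -0.02. This is 28.6% called, against 14.8% over all genes tested. None of 30 mitosis and proliferation genes and none of 32 DNA replication genes was called, with medians of 0.16 and -0.21. MKI67 had 17.8 and 17.1 RPKM in UT and 19.03 and 20.2 RPKM in HCl3 (log2 fold change 0.13 ± 0.09, adjusted P = 0.322). Of 26 p53 pathway genes 6 rose (23.1%, against 11.1% over all genes tested) and 20 were not called, with a median of 0.04. CDKN1A, the CDK inhibitor p21, had 25.9 and 22.9 RPKM in UT and 62.8 and 63.0 RPKM in HCl3 (log2 fold change 1.31 ± 0.10, adjusted P = 6.97e-34), and GDF15, a stress cytokine, 0.39 and 0.42 RPKM in UT and 2.53 and 2.4 RPKM in HCl3 (log2 fold change 2.54 ± 0.44, adjusted P = 1.02e-07). CDKN2B, the inhibitor p15 and a TGF-beta target, fell from 19.3 and 20.4 to 10.2 and 8.69 RPKM (log2 fold change -1.12 ± 0.12, adjusted P = 7.39e-20). It overlaps CDKN2B-AS1, and the genes of its 10 Mb stretch of chromosome 9 had a median of -0.42. Heat shock genes (0 of 20), lysosome and autophagy genes (0 of 29) and chromatin writers and erasers (2 of 48 up) were at or below the background of 14.8%, as were cholesterol genes (1 of 24 up) and proteasome genes (2 of 37 down). Fatty acid synthesis genes had 1 of 18 members up and 2 down (2 up and 1 down without UT 1), and xenobiotic and aldehyde metabolism genes 4 of 28 up and 2 down. Of 12 creatine and selenoprotein genes 3 rose, and 1 without HCl3 2 or without UT 2. Airway differentiation genes rose in 3 of the 6 that could be tested of 27 listed, and in none without either HCl3 library or without UT 1.

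Several genes had no read in UT and were called up in HCl3. EYA2, a transcriptional co-activator (chr20:45523263-45817492), had no read in UT and 3.69 and 3.75 RPKM in HCl3, at least 112-fold higher (adjusted P = 3.98e-12). GALC, the lysosomal galactosylceramidase, reached 2.41 and 2.51 RPKM, at least 106-fold higher (adjusted P = 6.03e-12). MGMT (chr10:131265454-131565783), which removes alkyl groups from guanine and was the 1 member of 34 DNA repair genes called, had 3.55 and 3.84 RPKM in HCl3 and no UT read, at least 52.1-fold higher (adjusted P = 1.04e-09). In these genes both UT libraries were at 0 and the HCl3 libraries lay close together. OSBPL6, an oxysterol-binding protein, was at least 102-fold higher, ZNF883 at least 61.0-fold, EPDR1 at least 54.8-fold, CNKSR2 at least 51.9-fold and C14orf132 at least 40.5-fold. CPVL, a carboxypeptidase, had 1 UT read and 8.39 and 8.59 RPKM in HCl3, a ratio of 996 (95% exact counting interval 178 to 39360; adjusted P = 2.92e-11). SLC12A7, a potassium-chloride cotransporter, had 3 UT reads and 6.38 and 6.83 RPKM in HCl3, a ratio of 808 (interval 276 to 3922). SLC38A5, an amino acid transporter, had 2 UT reads and 10.98 and 11.1 RPKM in HCl3, a ratio of 761 (interval 210.2 to 6285). SLC12A7 and CADM3 lost their calls without either HCl3 library.

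The largest falls beside TLL1 were in genes of low to middle level. PCLO, a presynaptic scaffold, had 0.27 and 0.36 RPKM in UT and 0 and 0 RPKM in HCl3, a ratio of 230 with an interval of 63.1 to 1903 (adjusted P = 5.43e-12). BCHE, butyrylcholinesterase, had 1.76 and 1.72 RPKM in UT and 0.02 and 0.06 RPKM in HCl3 (log2 fold change -5.54 ± 0.61, adjusted P = 5.48e-18). DCDC2, a ciliary doublecortin protein, had 1.65 and 1.83 RPKM in UT and 0.17 and 0.1 RPKM in HCl3 (log2 fold change -3.81 ± 0.32, adjusted P = 3.1e-30). The cytokine receptor gene TNFRSF8 (CD30) fell from 1.44 and 1.3 to 0.14 and 0.1 RPKM (log2 fold change -3.65 ± 0.38, adjusted P = 1.53e-19). CD74, the invariant chain of class II antigen presentation, had 2.99 and 2.12 RPKM in UT and 0.33 and 0.56 RPKM in HCl3 (log2 fold change -2.69 ± 0.41, adjusted P = 1.7e-09), and L3MBTL4, a chromatin reader, 0.84 and 0.59 RPKM in UT and 0.08 and 0.01 RPKM in HCl3 (log2 fold change -3.99 ± 0.60, adjusted P = 9.03e-10), the latter not called without UT 2. SNHG8, a host transcript of a small nucleolar RNA, had 38.2 and 19.6 RPKM in UT and 6.49 and 7.78 RPKM in HCl3 (log2 fold change -1.83 ± 0.27, adjusted P = 4.19e-10). LOC101927780, LOC645638 and DOCK3 completed the falls, with log2 fold changes of -2.54, -2.08 and -1.77.

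Imprinted genes, expressed from 1 parental copy, had 7 of 21 members up and 1 down. H19, a long non-coding RNA, had 0.52 and 0.39 RPKM in UT and 9.06 and 10.3 RPKM in HCl3 (log2 fold change 4.34 ± 0.24, adjusted P = 6.78e-72), and its neighbour IGF2 had 0.04 and 0.05 RPKM in UT and 0.52 and 0.74 RPKM in HCl3 (log2 fold change 3.99 ± 0.54, adjusted P = 7.09e-12). SNRPN and SNURF, which share their transcript and cannot be told apart here, were near 0 in UT (SNRPN 0.06 and 0 RPKM) and expressed in HCl3 (SNRPN 8.72 and 9.37 RPKM). GNAS had 310.1 and 318 RPKM in UT and 491 and 509 RPKM in HCl3 (log2 fold change 0.62 ± 0.08, adjusted P = 7.51e-12), and PEG10 fell (log2 fold change -0.70 ± 0.10, adjusted P = 4.2e-10). HOX genes rose in 4 of 28 cases, near the background, all in the HOXA cluster, whose region on chromosome 7 had a median of 0.46. HOXA10 had 0.49 and 0.52 RPKM in UT and 2.41 and 2.62 RPKM in HCl3 (log2 fold change 2.33 ± 0.30, adjusted P = 1.31e-13), and leaving out any 1 library left 1 or 2 of the 4. Cancer-testis genes could be tested in 5 of 91 cases, of which 3 fell from below 0.2 RPKM, and no call held when any 1 library was left out. Other named genes were IGFBP3, a carrier of insulin-like growth factors, at 177 and 198 RPKM in UT and 362 and 385 RPKM in HCl3 (log2 fold change 0.94 ± 0.09, adjusted P = 1.89e-21, median of its 10 Mb stretch 0.55), and GATM, which starts creatine synthesis, at 0.07 and 0.04 RPKM in UT and 0.47 and 0.61 RPKM in HCl3 (log2 fold change 3.17 ± 0.70, adjusted P = 6.05e-05), a call lost without HCl3 2.

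The direct test between HCl3 and Ni-W asked where the HCl3 population differed from the other washed-out cells. Clone, experiment and time without nickel cannot be told apart between these groups. The test called 713 of 14956 genes (4.77%), 464 higher in HCl3 (3.1%) and 249 lower (1.66%), and 2476 (16.6%) passed the adjusted P alone. Among interferon-stimulated genes 17 of 40 were higher in HCl3 and none lower. MX1 had 5.72 and 5.16 RPKM in Ni-W against 13.7 and 13.04 RPKM in HCl3 (log2 fold change over Ni-W 1.22 ± 0.11, adjusted P = 8.85e-25), and IFITM1 4.58 and 3.04 RPKM against 19.98 and 20.6 RPKM (log2 fold change over Ni-W 2.38 ± 0.20, adjusted P = 4.48e-29). Of the hypoxia list 7 were higher and none lower, ANGPTL4 having 3.73 and 2.97 RPKM in Ni-W (log2 fold change over Ni-W 1.95 ± 0.15, adjusted P = 1.02e-35) and CA9 8.95 and 5.12 RPKM (log2 fold change over Ni-W 1.54 ± 0.39, adjusted P = 0.000967). Collagens were higher in 7 cases and TGF-beta genes in 6, with none lower in either list. COL1A2 had 0.25 and 0.18 RPKM in Ni-W, at the level of UT (log2 fold change over Ni-W 3.21 ± 0.24, adjusted P = 2.85e-37), and INHBB 0.21 and 0.14 RPKM (log2 fold change over Ni-W 3.27 ± 0.34, adjusted P = 2.36e-19). Desmosome and tight junction genes went the other way, with 5 lower in HCl3 and none higher, JUP having 39.97 and 37.8 RPKM in Ni-W (log2 fold change over Ni-W -0.59 ± 0.08, adjusted P = 6.24e-12). Clustered protocadherins and complement genes were split, with 4 higher and 4 lower, and 5 higher and 5 lower.

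SELENBP1, a selenium-binding protein, had 4.53 and 4.05 RPKM in UT, 3.78 and 4.09 RPKM in HCl3 and 0.09 and 0.09 RPKM in Ni-W (log2 fold change over Ni-W 5.72 ± 0.50, adjusted P = 1.72e-27), and was not called against UT. SLC2A3 had 0.04 and 0.06 RPKM in Ni-W (log2 fold change over Ni-W 4.70 ± 0.45, adjusted P = 1.79e-23). The largest differences in the other direction were in genes with few or no reads in HCl3. RCAN2, a calcineurin regulator, had 0.99 and 1.08 RPKM in Ni-W and 0 and 0 RPKM in HCl3, and COBLL1, an actin nucleator relative, 1.14 and 1.25 RPKM in Ni-W and 0.01 and 0 RPKM in HCl3. Both were at or near 0 in UT. SYK, a tyrosine kinase, had 3.28 and 3.01 RPKM in Ni-W and 0.11 and 0.1 RPKM in HCl3 (log2 fold change over Ni-W -5.02 ± 0.28, adjusted P = 2.13e-69).

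Markers were checked against the label of a bronchial epithelial line. KRT7, KRT8 and KRT18 were abundant in all 4 libraries, KRT8 at 219.9 and 192 RPKM in UT and 294 and 310.3 RPKM in HCl3. Of the defining epithelial and basal markers, EPCAM was low, near 1 RPKM, CDH1 was at or below 0.07 RPKM, TP63 had no read and KRT5 had 1 read in all. Of 8 epithelial markers 3 of 6 tested rose (1 without HCl3 2), and their summed level was 602 to 636 RPKM in UT and 935 to 996 RPKM in HCl3. Of 8 fibroblast markers COL1A1, THY1 and PDGFRB were expressed in both groups, DCN had no read, and LUM and PDGFRA were at or below 0.11 RPKM. COL3A1 and COL1A2 were the 2 called, and the summed level was 514 to 580 RPKM in UT and 641 to 670 RPKM in HCl3. Endothelial markers summed to 0.16 to 0.28 RPKM in UT and 0.81 to 0.91 RPKM in HCl3, with PECAM1 at 0 and 2 of 7 called up. Leukocyte markers summed to 20.7 to 22.8 RPKM in UT and 18.5 to 20.4 RPKM in HCl3, with CD3E at 0 and CD14 up (1.8 and 1.06 RPKM in UT and 2.84 and 4.07 RPKM in HCl3). Neuroendocrine markers summed to 0.14 RPKM in UT and 0.22 to 0.31 RPKM in HCl3, with CHGA at 0. The part of cell makeup in the results was not tested.

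Changes were uneven along the genome. On chromosome 15, 79 of 391 genes with mean normalised counts of 50 or more were up and 1 was down, with a median log2 fold change of 0.32, and on chromosome 13 the median was 0.28. On chromosome 18, 7 of 174 were up and 35 down, and on chromosome 3, 44 of 685 were up and 83 down, with a median of -0.23. The first 10 Mb of chromosome 7 had a median of 0.61 over 66 genes. When the median of the surrounding 10 Mb was subtracted from each gene, the list medians were 1.03 for hypoxia, 1.90 for collagens, 0.67 for TGF-beta and BMP, 0.81 for interferon-stimulated genes and -0.50 for ribosomal proteins. The cause of these regional shifts was not tested.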

How the data were processed

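RNA-seq of BEAS-2B cells was deposited per library. According to the study's methods, the authors aligned reads to hg19 with STAR 2.4, removed multi-mapped reads and counted them per RefSeq gene with BioWardrobe, and they described the libraries as biological replicates. The deposited files hold raw read counts and RPKM values per gene for 25411 genes (RPKM rounded by the authors to 2 decimals). Whether counting used strand was not given in the sources used here, so genes that overlap another gene model are uncertain.

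Counts of the 4 libraries were tested with DESeq2 1.42.0 in R 4.3.3 (Wald test, two-sided, independent filtering, Benjamini-Hochberg), as the study's methods do, and HCl3 against Ni-W in the same way. Genes were called at adjusted P under 0.05 and at least 1.5-fold. Lists were described by counts and medians and were not tested. Named genes were the 12 largest changes each way at a mean normalised count of at least 50 and apart in every library, the 12 largest each way in RPKM, up to 6 called members per list by fold change plus members with a defining role, the study's examples, and the 4 largest each way against Ni-W; the other genes described in the text are list members added after their values were seen. The members and lists were chosen with earlier results of these data known. Where a group had no read, a fold was set against a floor of 3 reads per library, and intervals and floors cover counting error only. On simulated counts for HCl3 against UT, DESeq2 recovered 92 of 100 genes changed by 1 on the log2 scale. It recovered 100 of 100 changed by 2, with 2 false calls. In the real libraries the groups differed in spread (biological coefficient of variation 0.10 in UT and 0.0451 in HCl3). Of the 1744 genes called up, 1008 had a mean level under 1 RPKM in UT. The simulated numbers therefore give no error rate for the real calls. Alternatives were edgeR 4.0.16, other size factors, filters, thresholds and thinning, each library left out, a replicate block, and removal of GC and length trends. Libraries of the same number did not deviate together (r = -0.159 over 2 pairs), so the numbers were not taken as pairs. Some list members and 1 gene that the naming rule selects are not reported here.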

Additional observations from a re-analysis of the deposited data

Results flagged for a closer look

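For 19 of the named genes HCl3 and Ni-W differed in the direct DESeq2 test (adjusted P under 0.05 and at least 1.5-fold). Both groups were otherwise compared with the same UT libraries. Log2 fold changes of HCl3 over Ni-W were positive for SELENBP1 (5.72), SLC2A3 (4.70), M1AP (4.80), C14orf132 (3.24), EPDR1 (2.06), TGFBI (1.18), CNKSR2 (0.83), SLC38A5 (0.81), GALC (0.65) and CDKN2B (0.59). Negative values were found for SYK (-5.02), L3MBTL4 (-4.50), CD74 (-4.05), ROBO1 (-2.02) and CADM3 (-1.57). In 4 further genes 1 group had almost no reads, so that the fitted value depends on the model and is no measure of size, namely NRK (9.32), RCAN2 (-9.62), TSNAX-DISC1 (-8.66, a read-through gene that shares its reads with TSNAX and DISC1) and COBLL1 (-7.90). M1AP was lower in HCl3 than in UT (2.11 and 1.80 RPKM in UT, 1.08 and 1.14 RPKM in HCl3) and lower again in Ni-W (0.12 and 0 RPKM). CD74, by contrast, lay at 7.02 and 6.35 RPKM in Ni-W, above UT at 2.99 and 2.12 RPKM, and at 0.33 and 0.56 RPKM in HCl3. Leaving out 1 library or blocking by library number took the calls of M1AP, NRK, RCAN2 and COBLL1 below the threshold in at least 1 setting.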

How the results depend on the processing

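For HCl3 against UT, where 2333 genes were called, leaving out 1 library gave 1339 to 2109 calls (1412 without HCl3 1, 1339 without HCl3 2, 2109 without UT 1, 2048 without UT 2). The lone library of a group was then assumed to vary like the other group. Without a fold threshold 4945 genes passed (54.5% higher in HCl3), and 1308 at 2-fold (91.4% higher). edgeR called 2757, and the remaining planned settings gave 1675 to 2485 calls. With GC and length trends removed 2236 genes were called, of which 2008 were shared with the 2333. For HCl3 against Ni-W, where 713 genes were called, leaving out 1 library gave 327 to 530 calls (391 without HCl3 1, 327 without HCl3 2, 458 without Ni-W 1, 530 without Ni-W 2), no fold threshold 2476 and a 2-fold threshold 369. A replicate block by library number left 1779 calls against UT and 455 against Ni-W, and with GC and length trends removed as well 1675 and 435. The crossed pairing, chosen after seeing the data, gave 1880 and 557 calls, and an independent filtering level of 0.05, also chosen after seeing the data, gave 2349 and 716. Under the block MGMT, EPDR1, CNKSR2 and C14orf132 were not called, and 16 ribosomal protein genes fell against 24 without it. Among genes named as the largest changes, as the study's examples or against Ni-W, none changed direction in these settings. Genes named only as list members were not checked for this. The balance of calls did change direction in 4 small lists. These were metallothioneins and NRF2 targets without UT 2, fatty acid genes without UT 1, and DNA repair genes (0 up and 1 down) under the block with both trends removed. The cause of lost calls was not tested. Depth limits the genes near 0: 3 reads in the shallowest library, UT 2, are 1.137e-05% of its total.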
